A study of Mus musculus with 20 samples.

Results

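Tbx21, Eomes, Gata3, Rora and Runx3 encode transcription factors best known from T cell lineages other than the follicular one. They are 5 of the 13798 genes measured and were chosen by name, though with earlier results of these data known. All 5 were in the expression table. Expression was measured in 28192 single follicular T cells from the spleens of 10 C57BL/6 bone marrow chimeras, with 1 library of RNA and 1 of T cell receptors for each mouse. The 5 WT chimeras were irradiated recipients that received wild type marrow and were immunized with NP-OVA in alum at week 6. The authors' methods also describe a later booster of NP-OVA for non-autoimmune chimeras. The 5 mixed 564Igi chimeras received wild type marrow together with marrow from 564Igi mice, whose B cells carry knocked-in heavy and light chains of a receptor against ribonuclear complexes. No immunization is given for the 564Igi chimeras, so that the autoreactive clone and the absence of immunization cannot be told apart. All chimeras were sacrificed at week 10 after irradiation. The sort took CXCR5+PD-1+ cells among CD3+CD4+ T cells that were CD45.2+ and CD45.1-, and the labels do not say which marrow the sorted cells of a mixed chimera came from.

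Helper T cells take on different fates under the control of a few transcription factors. T-bet (Tbx21) drives the TH1 program of interferon gamma and Cxcr3, Eomesodermin (Eomes) is a related T-box factor of cytotoxic and memory T cells, and Runx3 cooperates with both and represses Cd4 in cytotoxic T cells. GATA3 (Gata3) directs the TH2 program and Il4 and is also used by regulatory T cells, while RORα (Rora) acts in TH17 cells and is found in tissue regulatory T cells. Follicular helper T (TFH) cells depend instead on Bcl6, and follicular regulatory T (TFR) cells on Foxp3 as well.

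The authors named 6 clusters of cells, 5 of TFH cells and 1 of TFR cells. The activated TFH cluster held 11953 cells, the TFR cluster 11650, the Sostdc1 TFH cluster 2803, the central memory TFH cluster 725, the effector TFH cluster 682 and the interferon-stimulated (ISG) TFH cluster 379. Their defining genes were in place: Foxp3 was found in 56.0% of TFR cells, Sox4 in 66.9% of central memory cells, Gzmk and Ccl5 in 83.1% and 76.1% of effector cells and Isg15 in 97.6% of ISG cells, as means over mice. Depth ranged from 3424280 to 15241983 UMIs per mouse, and the median per cell was 2728 in 564Igi mouse 24 and 4375.5 in 564Igi mouse 17, the shallowest and the deepest library. Cd3e was found in 99.4% of cells. The B cell genes Cd79a and Ms4a1 were found in 0.253% and 0.0554%, and the erythroid genes Hbb-bs and Hba-a1 in 0.465% and 0.228%. These shares are a guide to how often a foreign transcript was read in a T cell droplet. Of the markers of other cells that could have passed the sort, Zbtb16 of NKT cells, Klrk1 of NK cells and Il1rl1 of ILC2 were each found in under 1% of all cells. Klrb1c was found in 3.76%, Cd8b1 in 4.59% and the myeloid gene Cd68 in 3.44%, with 13.96% in the effector cluster. The other myeloid genes, Lyz2 and Csf1r, were found in 0.231% and 0.0525% of all cells and in 0.199% and 0.286% of effector cells. Of the NK cell genes, Klrk1 was found in 1.13% of effector cells (2.26% in WT and 0% in 564Igi mice). Klrb1c was found in 2.77% of effector cells (4.21% in WT and 1.33% in 564Igi mice). The part of such cells in the results was not tested. Between libraries, 491 barcodes occurred more than once, with at most 23 shared by any 2 libraries, and no such pair of cells had the same receptor.

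At least 1 of the 5 transcripts was found in 14415 cells or 51.1%, and at least 2 in 3743 cells or 13.3%. Values are the share of cells with at least 1 corrected UMI, or the mean of log2(corrected count + 1) over the cells of a mouse, called the level here. Most detected cells held a single UMI of a transcript, with a mean count in detected cells of 1.23 for Tbx21, 1.26 for Gata3, 1.24 for Rora and 1.16 for Runx3, against 2.06 for Eomes. Detected cells were deeper than undetected ones, with a median of 4145.5 against 3507.5 UMIs for Tbx21 and 3838.5 against 3455.5 for Gata3, so a cell without a UMI may still express the gene.

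**Figure D1:**
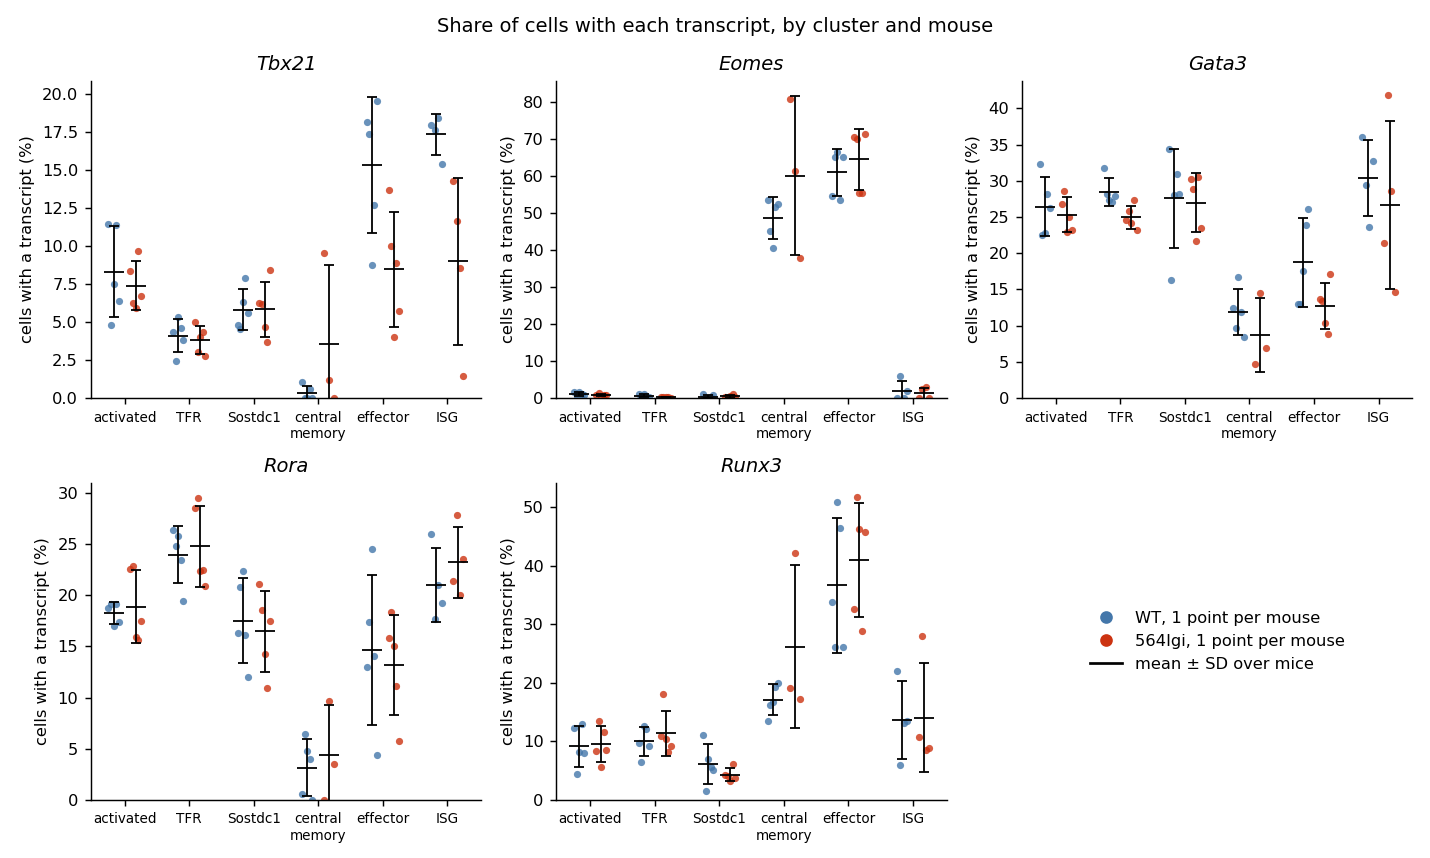
Share of cells with each transcript (y axis, %) in the 6 clusters (x axis), with 1 point per mouse with at least 20 cells in the cluster and the mean ± SD over mice of each condition, error bars being cut off at 0. Eomes stood between 37.9% and 81.0% in the central memory and effector clusters of every mouse and at or below 5.88% in the other clusters.

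Eomes was concentrated in a pair of small clusters. The effector and central memory clusters together made up 4.99% of cells and held 798 of the 974 cells with Eomes, or 81.9%. In the effector cluster Eomes was found in 54.5%, 65.2%, 66.7%, 53.5% and 65.2% of cells in WT mice 11, 12, 14, 23 and 36, and in 70.5%, 70.0%, 55.5%, 55.6% and 71.4% in 564Igi mice 13, 17, 21, 24 and 34. In the central memory cluster it was found in 53.5%, 45.2%, 40.5%, 51.7% and 52.6% of cells in the WT mice, and in 81.0%, 61.4% and 37.9% in 564Igi mice 13, 17 and 24, the only 564Igi mice with at least 20 such cells. The mice of the conditions overlapped in both clusters. The effector mean over mice was 62.8% ± 7.25 (SD, n = 10) and the central memory mean 53.0% ± 13.6 (SD, n = 8). The effector cluster was the higher in 7 of 8 mice, by 9.68 percentage points ± 11.9 (SD), and the ranges of both clusters overlapped. The step down to the next cluster was 55.1 points ± 15.1 (SD, n = 6 mice with both clusters), since the ISG mean was 1.62% ± 2.10 (SD, n = 8). In the activated, Sostdc1 and TFR clusters Eomes was found in 0.983% ± 0.438, 0.429% ± 0.425 and 0.401% ± 0.374 of cells (SD, n = 10). The Sostdc1 and TFR values were near or below the shares of foreign transcripts there. Cd79a was found in 0.402% of Sostdc1 and 0.321% of TFR cells, and Hbb-bs in 0.785% and 0.448%. With every cell thinned to 2804 corrected UMIs, the effector and central memory means were 55.0% and 47.4%.

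**Figure D2:**
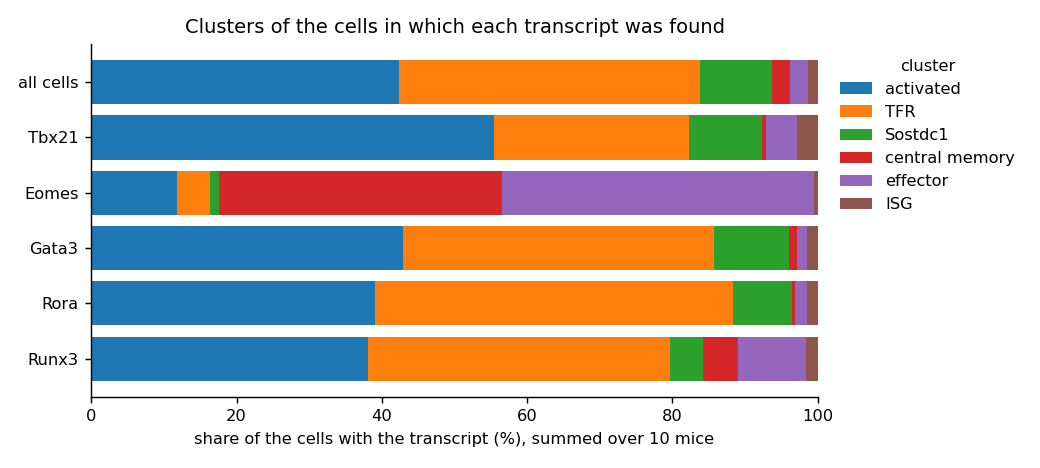
Share of the cells with each transcript (x axis, %) that lay in each cluster (colors), summed over 10 mice, with the same for all cells in the top bar (y axis, 1 bar per transcript). The effector and central memory clusters took 42.9% and 39.0% of the cells with Eomes but 2.42% and 2.57% of all cells.

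Runx3 was also highest in the effector cluster, followed by the central memory cluster, but with a smaller step to the others. It was found in 33.8%, 26.1%, 50.9%, 46.5% and 26.1% of effector cells in WT mice 11, 12, 14, 23 and 36, and in 32.6%, 51.7%, 46.2%, 28.9% and 45.7% in 564Igi mice 13, 17, 21, 24 and 34. The effector mean was 38.8% ± 10.3 (SD, n = 10), above the central memory mean of 20.5% ± 8.996 (SD, n = 8) in 8 of 8 mice with both. The central memory share lay between 13.5% and 20% in 7 mice and reached 42.2% in 564Igi mouse 17. ISG, TFR and activated cells had Runx3 in 13.8% ± 7.47 (SD, n = 8), 10.7% ± 3.17 (SD, n = 10) and 9.33% ± 3.09 (SD, n = 10) of cells, and neighbors in this order did not differ beyond their spread over mice. The Sostdc1 cluster was lowest at 5.16% ± 2.58 and below the activated cluster in 10 of 10 mice. Zbtb7b, the CD4 lineage factor that opposes Runx3, was found in 4.87% of central memory and 6.64% of effector cells against 13.2% to 16.4% in the other 4 clusters. Cd4 was found in 33.96% of central memory cells but in 75.7% of effector cells, and Cd8b1 was found at similar shares of 4.75% and 4.87% in both.

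Eomes lies at chr9:118478212-118486132 and Runx3 at chr4:135120652-135177990, both on the + strand, Rora at chr9:68653786-69388246 on the + strand, and Tbx21 at chr11:97098071-97115331 and Gata3 at chr2:9857078-9890034 on the - strand (GRCm38, GENCODE vM21). The promoters of Eomes and Runx3 are shown because the levels of these members varied together across clusters. RefSeq gives 1 start for Eomes and 2 for Runx3, and the 250 bases before each start (GRCm38.p6) are printed in lower case, with matches to the RUNX motif TGTGGT or its reverse complement ACCACA in capitals.
Eomes, chr9:118477939-118478188, + strand: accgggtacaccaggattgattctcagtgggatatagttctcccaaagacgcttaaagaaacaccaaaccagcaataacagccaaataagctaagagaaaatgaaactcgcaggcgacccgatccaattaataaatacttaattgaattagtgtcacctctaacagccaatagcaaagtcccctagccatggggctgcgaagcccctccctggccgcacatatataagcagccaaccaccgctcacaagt
Runx3, first start, chr4:135120395-135120644, + strand: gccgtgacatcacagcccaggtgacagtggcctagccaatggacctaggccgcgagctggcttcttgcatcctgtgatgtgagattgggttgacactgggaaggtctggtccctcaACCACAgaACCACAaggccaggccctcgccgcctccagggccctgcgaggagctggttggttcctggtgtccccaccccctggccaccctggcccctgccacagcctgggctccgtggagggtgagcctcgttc
Runx3, second start, chr4:135152295-135152544, + strand: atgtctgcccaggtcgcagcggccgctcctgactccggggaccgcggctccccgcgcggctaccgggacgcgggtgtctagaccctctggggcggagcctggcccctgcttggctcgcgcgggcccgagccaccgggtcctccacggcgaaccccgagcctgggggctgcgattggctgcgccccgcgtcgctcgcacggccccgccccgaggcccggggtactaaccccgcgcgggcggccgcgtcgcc
The first Runx3 start had 2 matches, from 134 to 129 and from 126 to 121 bases before it, both as the reverse complement. The RUNX motif was present on either strand in 14.05% of 32851 RefSeq promoter windows of this length. The T-box motif GGTGTGA (3.333% of windows), the GATA motif AGATAA (9.988%) and the ROR motif AGGTCA (14.02%) had no match on either strand in these 3 windows or in those of Tbx21, Gata3 and Rora. The deposited counts do not separate the starts of Runx3, and a match is a description of letters and not a bound site.

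Tbx21 did not follow Eomes into the central memory cluster. It was found in 13.2% ± 5.82 of ISG cells (SD, n = 8), 11.9% ± 5.32 of effector cells, 7.85% ± 2.32 of activated cells, 5.84% ± 1.501 of Sostdc1 cells and 3.97% ± 0.967 of TFR cells (SD, n = 10). The effector cluster was above the activated one in 7 of 10 mice, and the activated above the Sostdc1 and the Sostdc1 above the TFR cluster in 9 of 10 mice each. In the central memory cluster 8 of 725 cells had a Tbx21 UMI, or 1.10% (95% Wilson interval 0.560% to 2.16%, counting error only), and these 8 cells had a median of 7605 UMIs against 4001 in the rest. Of the TH1 genes, Cxcr3 was found in 9.70% of central memory cells against 38.9% of activated, 44.7% of effector and 43.6% of ISG cells, and Ifng in 1.90% against 13.5%, 32.9% and 12.4%.

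Gata3 had similar shares in 4 clusters and lower ones in the effector and central memory clusters. The ISG, Sostdc1, TFR and activated clusters had Gata3 in 28.5% ± 8.59 (SD, n = 8), 27.3% ± 5.32, 26.7% ± 2.47 and 25.9% ± 3.21 of cells (SD, n = 10), which did not differ beyond their spread. The effector share was 15.7% ± 5.58 (SD, n = 10), below the activated share in 10 of 10 mice by 10.2 points ± 6.10 (SD), and the central memory share was 10.7% ± 3.97 (SD, n = 8). Il4, the TH2 and TFH cytokine that GATA3 induces, was found in 18.2% of Sostdc1 and 12.6% of activated cells, and in 1.35% of central memory and 0.566% of effector cells. Other TH2 genes did not share one order, since Ccr8 was found in 29.1% of TFR cells and in 5.67% of activated cells, and Il4ra in 17.4% of central memory cells and 4.18% of activated cells.

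Rora was highest in TFR cells, at 24.4% ± 3.25 (SD, n = 10). It was found in 26.4%, 24.8%, 25.8%, 23.5% and 19.4% of TFR cells in WT mice 11, 12, 14, 23 and 36, and in 28.6%, 29.5%, 22.4%, 22.4% and 20.96% in 564Igi mice 13, 17, 21, 24 and 34, with overlapping conditions. ISG cells followed at 22.1% ± 3.48 (SD, n = 8), with TFR above ISG in 7 of 8 mice, then activated cells at 18.6% ± 2.49, Sostdc1 cells at 16.99% ± 3.85 and effector cells at 13.9% ± 5.94 (SD, n = 10). The central memory cluster was lowest at 3.602% ± 3.41, below the effector cluster in 8 of 8 mice. Of the TH17 genes, Il23r was found in 0.561% and Ccr6 in 4.90% of TFR cells against 0.0810% and 1.06% of activated cells, while Il1r1 was found in 0.425% of TFR and 1.15% of activated cells.

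Across the 56 values of a cluster in a mouse, the mean levels of Eomes and Runx3 had a Pearson r of 0.83, and those of Gata3 and Rora 0.65, while Eomes had an r of -0.76 with Gata3 and -0.66 with Rora. Clusters of a mouse share a library, and the values follow the clusters: within the 30 values of the 3 largest clusters r was 0.36 for Eomes with Runx3 and -0.037 for Gata3 with Rora. These are descriptions over points that are not independent. Of 9954 other genes, those most like Eomes were Il10ra (r = 0.94), Plek (0.93), Crtam (0.91), Slamf7 (0.90) and B4galnt1 (0.88). Those most like Runx3 were Adam19 (0.92), Nkg7 (0.91), Gzmk (0.90), Prf1 (0.89) and Saraf (0.89). For Tbx21 they were Myl12b (0.71), Cxcr3 (0.70), Lsp1 (0.66), Myo1f (0.64) and Cd47 (0.63), for Gata3 Smpdl3a (0.80), Meaf6 (0.77), Gsap (0.76), Nrp1 (0.76) and Icos (0.76), and for Rora Ass1 (0.84), Pkp3 (0.83), Rarg (0.81), Psen2 (0.79) and Clic1 (0.78). Crtam, a receptor of cytotoxic CD4 T cells, was found in 28.8% of central memory and 23.8% of effector cells and in at most 3.19% of cells elsewhere, as Eomes was.

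Co-detection asked whether the transcripts occurred in the same cells more or less often than their frequencies give within strata of a mouse, a cluster and 1 of 3 ranges of UMIs. Tbx21 and Runx3 were found together in 283 cells where 203 were expected, 1.39 times as many (pooled odds ratio 1.59), and above expectation in 8 of 10 mice. Within activated cells alone it was 161 against 104, with 9 of 10 mice above expectation. Eomes and Tbx21 were found together in 73 cells against 68.2 expected, and Eomes and Runx3 in 282 against 269, with 7 and 6 of 10 mice above expectation. In the effector cluster, 164 cells had both Eomes and Runx3 where 169 were expected. Rora was found with Tbx21 in 296 cells against 354 expected, above expectation in 2 of 10 mice, and with Eomes in 95 against 113, above in 1 of 10 mice. Gata3 with Rora, Gata3 with Runx3 and Rora with Runx3 were each found together 1.06 to 1.09 times as often as the strata give and above that number in 8 of 10 mice. With cells thinned to equal corrected totals, Tbx21 with Runx3 gave 167 against 120 and Tbx21 with Rora 178 against 212. Eomes with Runx3 then gave 188 against 191 (4 of 10 mice above) and Eomes with Tbx21 41 against 41.8 (5 of 10 above). Eomes with Rora gave 63 against 73.0 (3 of 10 above).

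**Figure D3:**
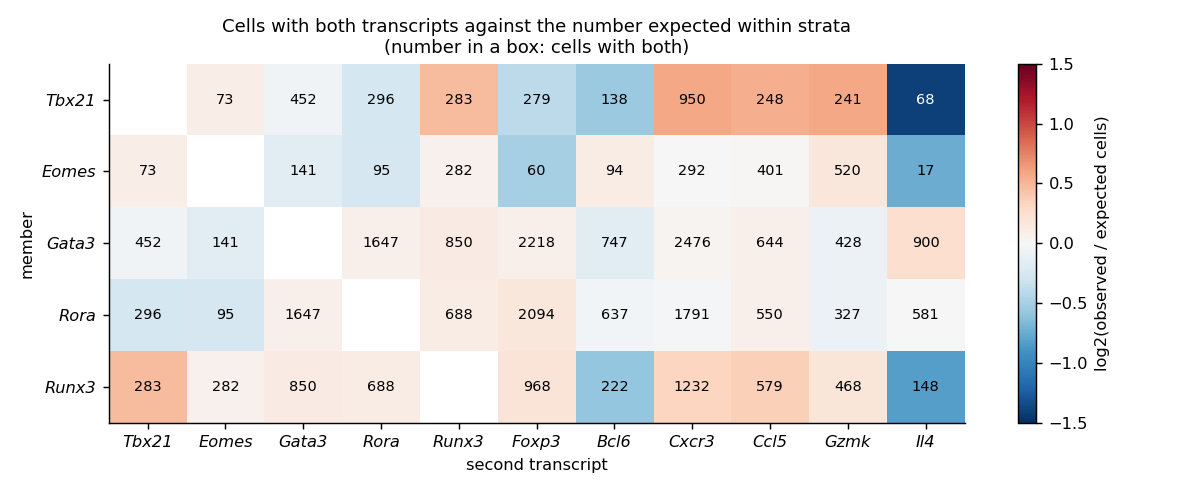
Cells with both a member (rows) and a second transcript (columns) over the 10 mice, with color for log2 of observed over expected cells within mouse, cluster and depth strata and the number of cells with both in each box (blank: the same gene). Tbx21 stood above expectation with Runx3, Cxcr3, Ccl5 and Gzmk and below it with Bcl6, Foxp3 and Il4.

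Tbx21 cells had Cxcr3 in 950 cases against 634 expected, Ccl5 in 248 against 170 and Gzmk in 241 against 162, each above expectation in 10 of 10 mice. Il4 was found in 68 Tbx21 cells against 179 expected and Foxp3 in 279 against 367, neither of them above in any of 10 mice, and Bcl6 in 138 against 204, above in 1 of 10 mice. Runx3 cells had Cxcr3 (1232 against 982) and Ccl5 (579 against 454) above expectation in 10 of 10 mice, and Bcl6 (222 against 331) and Il4 (148 against 263) above it in 0 of 10 mice. Unlike Tbx21 cells, they had Foxp3 above expectation (968 against 848, 10 of 10 mice). Gata3 cells had Il4 in 900 cases against 758 and Foxp3 in 2218 against 2098, above in 10 of 10 mice, and Bcl6 in 747 against 841, above in 1 of 10 mice. Rora cells had Foxp3 in 2094 cases against 1854, above in 10 of 10 mice. Eomes cells had Gzmk in 520 cases against 463 (10 of 10 mice above) and Foxp3 in 60 against 84.5 (1 of 10 above), and Bcl6 in 94 against 87.2 (5 of 10 above). In effector cells, Ccl5 was found in 249 Runx3 cells against 227 expected (9 of 10 mice above) but in 318 Eomes cells against 331 (1 of 10 mice above). These counts are descriptions and were not tested against chance.

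T cell receptors were paired with RNA in 21405 cells, and a clonotype is the set of cells of a mouse with the same listed CDR3 sequences. The 2 Eomes-rich clusters differed in clonal expansion, and it was the central memory cluster that stood apart from the rest. Of all its cells, 8.64% ± 10.1 lay in clonotypes of 2 or more cells, against 70.5% ± 11.2 of effector cells (SD, n = 10). The share was 72.8% in activated, 81.7% in Sostdc1, 66.6% in ISG and 65.0% in TFR cells. Of Eomes-detected effector cells, 70.0% ± 12.1 (SD, n = 10 mice) lay in clonotypes of 2 or more cells, with values of 47.1% to 87.2%. Of Eomes-detected central memory cells it was 11.3% ± 11.2 (SD, n = 8 mice with at least 10 such cells), with values of 3.37% to 15.4% in 7 mice and 37.2% in 564Igi mouse 17. Cells of the same clusters without Eomes had shares of 74.0% ± 10.9 (SD, n = 7) and 7.98% ± 11.3 (SD, n = 7). The largest effector clonotype of WT mouse 11 took 23 of 37 Eomes-detected cells and that of 564Igi mouse 17 took 16 of 38, so the effector values of a mouse can rest on few clonotypes. Over all mice, 207 clonotypes had an Eomes-detected effector cell and 304 had an Eomes-detected central memory cell, and 2 were in both sets. Among the 207, 83 also had cells in the activated cluster. Of these 734 sister cells, 7 had Eomes, or 0.954%, against 80 of 8319 activated cells of all other clonotypes, or 0.962%. The 7 cells came from 3 of 10 mice, and the pooled shares hide a difference between mice. Sister cells had Eomes in 3.45% against 0.670% of other activated cells in 564Igi mouse 13. The shares were 5.88% against 1.57% in WT mouse 11 and 1.90% against 0.329% in WT mouse 12. No sister cell of the other mice had Eomes.

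**Figure D4:**
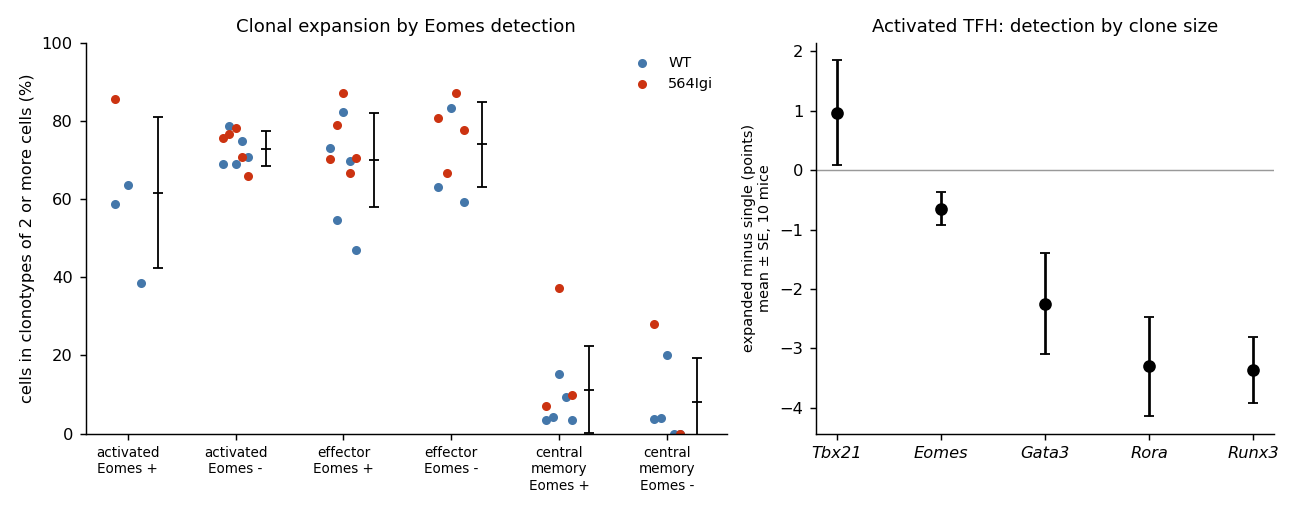
Left, share of cells in clonotypes of 2 or more cells (y axis, %) for cells with (+) and without (-) Eomes in 3 clusters, with 1 point per mouse with at least 10 such cells and the mean ± SD cut off at 0. Right, share of activated cells with each transcript in expanded minus single-cell clonotypes (y axis, percentage points) as the mean ± SE over 10 mice, which was -3.37 for Runx3 and -3.30 for Rora.

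Within clusters, detection was compared between expanded and single-cell clonotypes of the same mouse by exact sign flips (two-sided) in 20 comparisons of a member in a cluster. In activated cells, Runx3 was found in 8.44% of expanded and 11.8% of single cells, a difference of -3.37 points ± 1.77 (SD, n = 10 mice), with the expanded cells higher in 1 of 10 mice (exact p = 0.00391). Rora was found in 17.9% and 21.2%, a difference of -3.30 points ± 2.64 (SD), higher in 1 of 10 mice (exact p = 0.00586). Neither passed a threshold of 0.05 after adjustment over the 20 comparisons. The difference was -2.25 points for Gata3 (higher in 2 of 10 mice, exact p = 0.0215), -0.652 for Eomes (higher in 3 of 10 mice, exact p = 0.0449) and 0.965 for Tbx21 (higher in 7 of 10 mice, exact p = 0.307). Runx3 passed the adjusted threshold with cells thinned to equal corrected totals (-2.77 points) or without cells listing 2 alpha V genes (-2.57). Both Runx3 and Rora passed it without 564Igi mouse 17 (-3.81 each). The other differences were smaller with thinned cells, at -2.05 points for Rora (exact p = 0.0254), -1.33 for Gata3 (exact p = 0.174) and -0.327 for Eomes (exact p = 0.131). Without cells listing 2 alpha V genes, the difference was -1.57 for Rora (exact p = 0.164) and -1.35 for Gata3 (exact p = 0.174). In TFR cells, Sostdc1 cells and effector cells (7 mice) no comparison had an unadjusted p under 0.05, and in the effector cluster Eomes was found in 62.9% of expanded and 63.8% of single cells (exact p = 0.766).

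The comparison of 564Igi with WT chimeras asked whether these transcripts differ between follicular T cells of autoreactive and of immunized mice. None of the 32 tests of a member in all cells or in a cluster was called by limma at an adjusted p under 0.05. The lowest adjusted p was 0.591, and 6 tests had an unadjusted p under 0.05. Of all genes tested, the share with an unadjusted p under 0.05 ran from 3.19% in all cells to 7.57% in central memory cells. Over all genes tested, 0.0703% were called in all cells, 0.0406% in activated, 0.0901% in TFR, 0.0405% in Sostdc1, 0.029% in central memory, 0.0623% in effector and 0.0106% in ISG cells, so 0 calls among 5 genes is what the background gives. Eomes passed the filter of 1% of cells in enough mice in all cells and in the central memory, effector and ISG clusters but not in the other 3. In all cells, the 564Igi minus WT difference in level was -0.0034 (SE 0.0098) for Tbx21, -0.0077 (SE 0.0099) for Eomes, -0.031 (SE 0.020) for Gata3, 0.0056 (SE 0.020) for Rora and 0.0096 (SE 0.017) for Runx3. The 95% interval for Gata3 reached from -0.072 to 0.010.

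**Figure D5:**
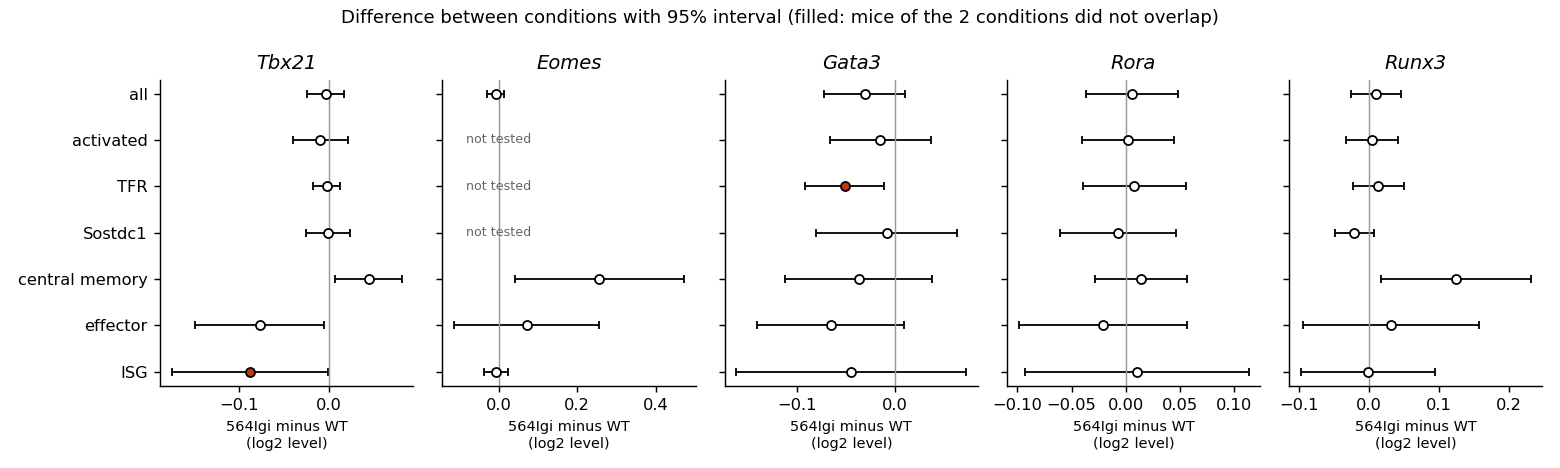
Difference in mean level between 564Igi and WT chimeras (x axis, log2 of corrected count plus 1) with its 95% interval for each member, in all cells and in each cluster (y axis), filled where the mice of the conditions did not overlap. The filled points are Gata3 in TFR cells, at -0.052, and Tbx21 in ISG cells, at -0.088.

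Gata3 in TFR cells had the lowest unadjusted p of the 32 tests, though not the lowest adjusted one. Its level was 0.384, 0.325, 0.3001, 0.311 and 0.326 in WT mice 11, 12, 14, 23 and 36, and 0.268, 0.291, 0.274, 0.297 and 0.259 in 564Igi mice 13, 17, 21, 24 and 34. Each 564Igi mouse was below every WT mouse by level, and 0.71% of genes tested in TFR cells had such non-overlapping mice in either direction. The difference was -0.052 (SE 0.019, 95% interval -0.092 to -0.011, unadjusted p = 0.0146, limma adjusted p = 0.9998). As a share of cells it was 28.4% ± 1.93 in WT and 25.0% ± 1.60 in 564Igi chimeras (SD, n = 5 each), with overlapping mice (exact permutation p = 0.0159, two-sided, the smallest possible p being 0.00794). Without 564Igi mouse 24 the share differed by -4.05 points and passed the threshold after adjustment over the 5 members. The difference between conditions in TFR minus activated cells was -0.037 for Gata3 (SE 0.017, unadjusted p = 0.0508, limma adjusted p = 0.688). The TFR minus activated comparison called 0 of 9682 genes (0%), with 704 at an unadjusted p under 0.05.

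Tbx21 had lower values in 564Igi than in WT chimeras in the ISG and effector clusters, which did not pass adjustment. In ISG cells it was found in 18.0%, 17.6%, 18.4% and 15.4% of cells in WT mice 11, 14, 23 and 36 and in 14.3%, 11.6%, 8.57% and 1.47% in 564Igi mice 13, 17, 21 and 34, from 28 to 68 cells per mouse. The conditions did not overlap, as for 2.36% of genes tested by level in this cluster. The difference in level was -0.088 (SE 0.043, unadjusted p = 0.0485, limma adjusted p = 0.998) and was -0.035 (SE 0.046) when mice with at least 10 ISG cells were included, and the exact permutation p of the shares was 0.0286 in 4 against 4 mice. In effector cells it was found in 18.2%, 17.4%, 8.77%, 12.7% and 19.6% of cells in the WT mice 11, 12, 14, 23 and 36, and in 13.7%, 10%, 4.05%, 8.89% and 5.71% in 564Igi mice 13, 17, 21, 24 and 34, and the conditions overlapped. The difference in level was -0.077 (SE 0.035, unadjusted p = 0.0358, limma adjusted p = 0.945). In activated cells, which held 932 of the 1682 cells with Tbx21, it was -0.0095 (SE 0.015). In effector minus activated cells the difference between conditions was -0.067 for Tbx21 (SE 0.034, unadjusted p = 0.0740, limma adjusted p = 0.879), in a comparison that called 0 of 9355 genes (0%) with 556 at an unadjusted p under 0.05.

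In the central memory cluster, the level of Eomes, Runx3 and Tbx21 had higher means in the 3 564Igi than in the 5 WT mice, which did not pass adjustment. The differences were 0.26 for Eomes (SE 0.10, limma adjusted p = 0.591), 0.12 for Runx3 (SE 0.052, limma adjusted p = 0.604) and 0.044 for Tbx21 (SE 0.018, limma adjusted p = 0.591). As shares of cells, the exact permutation p was 0.304 for Eomes, 0.125 for Runx3 and 0.125 for Tbx21. The level of Eomes was 0.84, 0.61, 0.62, 0.72 and 0.78 in WT mice 11, 12, 14, 23 and 36 and 1.26, 0.98 and 0.67 in 564Igi mice 13, 17 and 24, so that mouse 24 lay within the WT range. Without mouse 24 the Eomes difference was 0.41 (SE 0.096, limma adjusted p = 0.0497), and without mouse 13 it was 0.11 (SE 0.097, limma adjusted p = 0.865). The Runx3 difference was 0.046 (SE 0.043, limma adjusted p = 0.651) without 564Igi mouse 17, and that of Tbx21 was 0.0062 (SE 0.0086, limma adjusted p = 0.912) without mouse 13. The Tbx21 value rested on 3 cells of 564Igi and 3 of WT mice. The median depth of central memory cells was 4425, 5842 and 2611 UMIs in 564Igi mice 13, 17 and 24 and 3403.5 to 4137 in the WT mice, so that 2 of the 3 564Igi mice lay above and 1 below the WT range. With cells thinned to 2804 corrected UMIs, which does not equalize raw depth, the share with Eomes was 42.9% ± 4.27 (SD, n = 5) in WT mice. In 564Igi mice it was 55.0% ± 20.9 (SD, n = 3). The share with Runx3 was 12.4% ± 3.05 in WT and 21.7% ± 6.28 in 564Igi mice. Among the TH1 genes measured with Tbx21, 11 were tested in this cluster and 1 was called higher in 564Igi, the chemokine Ccl5, by 0.31 (SE 0.050, limma adjusted p = 0.0188), and 5 of the 11 did not overlap between conditions against 4.77% of all genes tested. No gene was called in this cluster when WT mouse 11, 12, 23 or 36 was left out. The cytotoxic granule gene Gzmk was found in 38.1%, 61.4% and 20.7% of central memory cells in 564Igi mice 13, 17 and 24 and in 11.3% to 19.0% in the WT mice (difference in level 0.62, SE 0.16, limma adjusted p = 0.224).

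No other gene of the lineage lists was called in any set of cells. In all cells, 12 TH1, 10 TH2, 7 TH17 and 11 RUNX-related genes passed the filter, with 0 called and a median difference of 0.0095, -0.0057, 0.0012 and 0.0037, against -0.0018 over all genes tested, and none of them had non-overlapping mice, as 0.452% of all genes did. Non-overlap was seen in 0.385% of genes in activated, 0.84% in Sostdc1 and 0.882% in effector cells. Within these lists it occurred outside the central memory cluster for the TH17 receptor Ccr6 in TFR cells, with a difference of -0.047 (SE 0.010, limma adjusted p = 0.0963), for the TH2 receptor Ccr8 in Sostdc1 cells, at -0.060 (SE 0.020, limma adjusted p = 0.881), and for the TH2 receptor Ccr4 in effector cells, at -0.17 (SE 0.042, limma adjusted p = 0.1501).

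Shares of cells with a transcript were also compared directly in 35 comparisons of a member and a set of cells. The lowest exact p was 0.0159, for Gata3 in TFR cells, and 2 comparisons were under 0.05, with none past the threshold after adjustment over the 5 members in each set of cells. Without WT mouse 12, Eomes in TFR cells passed it, at -0.583 points, though over all mice only 44 of 11650 TFR cells had Eomes. The smallest possible exact p was 0.0286 in the ISG cluster (4 against 4 mice) and 0.0179 in the central memory cluster (5 against 3), so that 1 member alone could not have passed there. Co-detection of the 10 pairs of members was compared between conditions as the log2 odds ratio per mouse. The lowest exact p was 0.0397, for Rora with Runx3, at 0.043 ± 0.19 in WT and 0.25 ± 0.036 in 564Igi chimeras (SD, n = 5 each), which did not pass after adjustment over the 10 pairs. For Tbx21 with Runx3 it was 0.37 ± 0.41 and 0.73 ± 0.50 (exact p = 0.246).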

How the data were processed

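Splenic follicular T cells of 5 WT and 5 mixed 564Igi chimeras were captured with 10x 5′ chemistry. Per the labels, Cell Ranger 4.0.0 was run by the authors against GRCm38. They filtered cells in Seurat 3.1.4 and removed receptor genes. They normalized each condition separately with sctransform, regressing out mitochondrial, ribosomal, UMI and heat shock scores. The deposited matrix holds the natural log of these corrected counts plus 1, and the deposited cell table holds raw UMI counts and cluster names. Separate normalization can shift levels between conditions. No doublet removal is named and none was run. Cells listing 2 alpha V genes (2602) were left out in an alternative.

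Values were converted back to corrected counts, which were whole in 100% of values (tolerance 1e-06), and were averaged per mouse as log2(count + 1). A mouse entered a cluster when 20 or more of its cells lay there. The filter kept genes with a share of 1% or more in a number of mice equal to the size of the smaller group, and these entered limma 3.58.1 (trend, under R 4.3.3), with Benjamini-Hochberg adjustment over all genes tested and a call at 0.05. Single values were compared by exact permutation over mice, clones by exact sign flips, and co-detection by Mantel-Haenszel odds ratios over cluster and UMI strata, with 0.5 added where a term was 0. The exact p-values refer to values of whole mice. In limma, the spread of a gene between mice was drawn toward that of genes of similar level. Its SE and p-value therefore do not reflect the gene's own spread alone. Differences between clusters are descriptions, since the clusters were made from these cells. The limma fit was tested on simulated data. Python 3.11.15, numpy 2.4.6, pandas 2.3.3, scipy 1.17.1 and matplotlib 3.10.9 were used.

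The members and gene lists were chosen with earlier results of these data known. Named were the members, list genes that were called or did not overlap plus up to 4 examples a list in alphabetical order, a fixed set of 7 partner genes, and the 5 genes most like each member. The list genes printed by cluster depart from that order and were picked after their values were seen. Promoters of all 5 members were matched by symbol in RefSeq. Of the list genes, Il5, Il17a, Il17f, Cd8a and Ncr1 were not analysed here, and some items are not reported here. Alternatives covered the trend, the filter, the pseudocount and scaling, the thresholds, labelled sex, depth, cells with 2 alpha V genes, mice 34 and 36, whose libraries are numbered apart, and each mouse.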

Additional observations from a re-analysis of the deposited data

Results flagged for a closer look

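Samples that stood apart from the others of their condition were looked for in 65 groups of 4 or 5 mice by the gap of the highest or lowest mouse to its neighbor, and 5 were found. Chance alone gives such a gap in about 1 in 20 groups. The share of all follicular T cells with Eomes was 1.505% in 564Igi mouse 34 and 3.21% in the next of the 564Igi mice. The share of TFR cells with Gata3 was 31.8% in WT mouse 11 and 28.2% in the next of the WT mice. The other 3 were Runx3 in 564Igi mouse 17, which was found in 16.3% of all cells against 10.7% in the next of the 564Igi mice, in 18.1% of TFR cells against 10.9%, and in 27.9% of ISG cells (12 of 43) against 10.7%. Mouse 17 had the deepest cells, with a median of 4375.5 UMIs, and the part of depth in these values was not tested.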

How the results depend on the processing

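No paired analysis was possible because the replicate numbers are mouse numbers and the conditions share none. No member's difference between conditions was called at an adjusted p under 0.05 by limma in the alternatives run, except Eomes in central memory cells without 564Igi mouse 24 (0.41). Among shares of cells, 1 comparison in place of 0 passed with detection at 2 UMIs, and leaving out a mouse gave 0 to 1. The former was Runx3 in Sostdc1 cells (-0.572 points), where 0.428% of 2803 cells had 2 or more UMIs of it. Among clones, 1 passed with thinned cells and 1 without cells listing 2 alpha V genes, and leaving out a mouse gave 0 to 2. Co-detection gave 0 throughout. Counts of genes called moved more, and the cause was not tested. In all cells the 7 calls became 1 without the trend, 2 without the filter, 1 at the study's limits, 13 with sex as a covariate, 15 without mice 34 and 36, and 3 to 26 without a mouse, the 26 being without WT mouse 14. In activated cells the 4 became 0, 2, and 1 without trend, without filter and at the study's limits, 1 per 10000 counts, and 1 to 19. In TFR cells the 9 became 0, 3 and 2, 21 with sex, and 5 to 27. In Sostdc1 cells the 4 became 1, 1 and 2, 7 with sex, and 2 to 6. In central memory cells the 3 became 1, 0 and 0, 13 per 10000 counts, 11 with sex, 0 without mice 34 and 36, 10 without cells listing 2 alpha V genes, 0 with at least 10 cells per mouse, and 0 to 68. In effector cells the 6 became 0, 1 and 1, 3 without cells listing 2 alpha V genes, and 1 to 13. In ISG cells the 1 became 0 without the trend, 3 per 10000 counts, 3 without mice 34 and 36, 2 without cells listing 2 alpha V genes, and 1 to 4. The TFR minus activated comparison gave 0 to 3 without a mouse. The central memory and ISG clusters, with as few as 21 and 28 cells in a mouse, limit what could be detected there.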
